A study of Mus musculus with 12 samples.

Results

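The hair keratins, the keratins of the inner root sheath, the proteins that harden them and the transcription factors of the hair matrix were examined in mouse skin. The genes were chosen by name from what they do in the hair follicle, and 31 of the 32 listed have a row in the count table, which lists 55453 genes. They are 8 keratins of the inner root sheath and companion layer, 7 type I and 5 type II hair keratins, trichohyalin with 2 hardening enzymes, 3 other shaft proteins and 5 transcription factors. Krt85 was not analysed here. All 31 genes passed the filter on low counts.

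RNA-Seq was performed on skin of 12 C57/BL6 mice in 4 groups of 3, which compared mice lacking Thy-1, a surface glycoprotein of fibroblasts and T cells, with wild-type mice in a model of skin fibrosis. WT PBS mice (159, 160 and 161) were wild type and received PBS, and WT BLM mice (145, 146 and 147) were wild type and received bleomycin, a DNA-damaging drug used to cause fibrosis. KO PBS mice (136, 137 and 139) and KO BLM mice (141, 143 and 144) carried the Thy1 knockout and received PBS or bleomycin. Bleomycin was injected under the dorsal back skin at 10 mg/kg per day for up to 14 days, and the skin was taken on day 21. The methods give an age of 8 to 12 weeks for the female knockout mice and describe all controls as littermates. They do not give the phase of hair growth of the sampled skin.

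A hair grows from matrix cells at the base of the follicle, which divide and then differentiate into concentric layers. Cells of the centre become the hair shaft and fill with type I and type II hair keratins, which pair with each other, while the surrounding inner root sheath makes its own keratins together with trichohyalin. Follicles pass through cycles of growth (anagen), regression (catagen) and rest (telogen), and hair keratins are known as products of growing follicles. Foxn1, Hoxc13, Msx2 and Dlx3 are transcription factors of the matrix and the differentiating shaft, and Gata3 acts in the inner root sheath and also in the epidermis.

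Library totals ran from 26473700 to 38890450 counts. Levels are given in CPM, the counts divided by the TMM-scaled library total, with the SD over the 3 mice of a group. Thy1, the gene knocked out, was at 45.6, 96.9 and 77.4 CPM in the KO PBS mice against 104.0, 115 and 149.6 CPM in the WT PBS mice, and at 84.7, 128 and 96.4 CPM in the KO BLM mice against 231, 349 and 416 CPM in the WT BLM mice. It was thus lower in every knockout mouse than in any wild-type mouse of the same treatment, but the differences did not pass (log2 fold changes of -0.75 and -1.69, adjusted p = 0.224 and 0.112, edgeR). Counts over the whole gene do not show whether reads came from the deleted part.

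Single libraries stood apart within the knockout groups. The 31 genes took 5.61%, 7.49% and 5.69% of all counts in the WT PBS mice and 0.0382%, 0.105% and 0.0308% in the WT BLM mice. Among the KO PBS mice they took 8.09% in mouse 136 but 0.0375% in mouse 137 and 0.0733% in mouse 139, and among the KO BLM mice 4.14% in mouse 141 but 0.422% in mouse 143 and 0.643% in mouse 144. The libraries labelled KO PBS 136 and KO BLM 141 were thus nearer to the WT PBS mice than to the others of their groups, and every comparison is given with and without both. Both were singled out by their levels of these same genes. Calls and p-values without them therefore describe the remaining mice and are not independent tests. For 28 of the 31 genes, KO PBS 136, KO BLM 141 and the 3 WT PBS libraries were the 5 highest of the 12, the exceptions being Krt36, Krt84 and Gata3. KO BLM 143 and 144 came next for 25 genes, and WT BLM 146 was above both other WT BLM mice for 25.

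**Figure D1:**
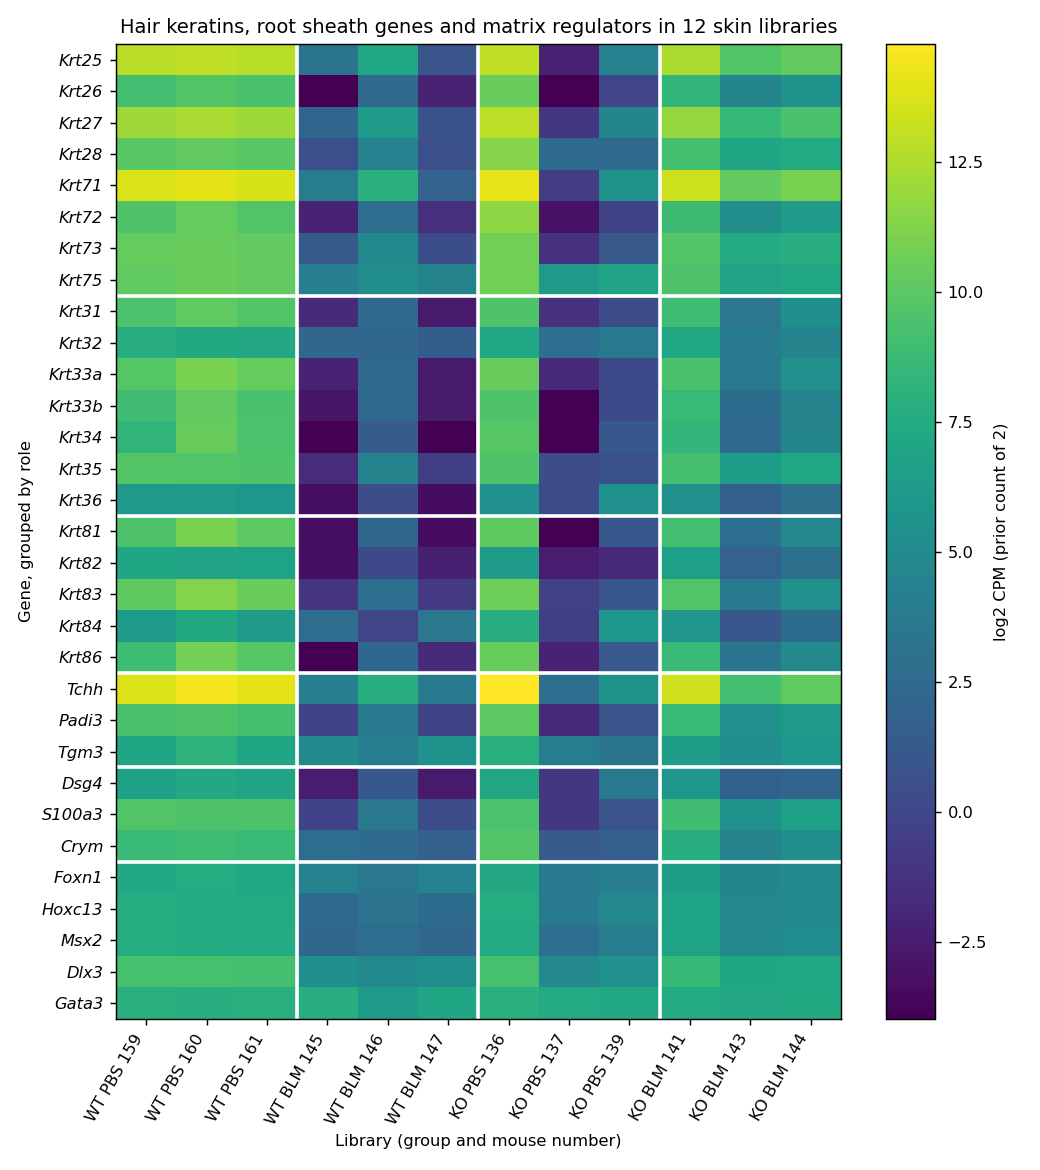
Level of each of the 31 genes (rows, grouped by role) in each of the 12 skin libraries (columns, by group and mouse number), as log2 CPM with a prior count of 2. The 3 WT PBS libraries, KO PBS 136 and KO BLM 141 are bright for nearly all genes, KO BLM 143 and 144 are intermediate, and Gata3 in the last row changes least.

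The keratin genes lie close together on chromosomes 11 and 15. In GENCODE M21 (GRCm38), Krt25, Krt26, Krt27 and Krt28 lie within 59.4 kb (chr11:99315516-99374903) and the 7 type I hair keratins within 94.4 kb (chr11:100011195-100105626). On chromosome 15 the 5 type II hair keratins lie within 91.6 kb (chr15:101459061-101550667) and Krt71, Krt72 and Krt73 within 68.4 kb (chr15:101733949-101802346), with Krt75 between them at chr15:101563345-101573904. RefSeq promoter windows of GRCm38.p6, from 250 bases before the start to 50 after it, were matched for 22 of the 31 genes. The 250 bases before the start are shown, 5′ to 3′ on the strand of the gene, for 2 inner root sheath keratins, a neighbouring pair of type I hair keratins and Krt84, whose levels departed from those of the other hair keratins. Capitals mark TATAAA, the core of a TATA box, and CTTTGA, the core bound by Lef1 and Tcf proteins, on either strand.
Krt71 (chr15:101743098-101743347, minus strand): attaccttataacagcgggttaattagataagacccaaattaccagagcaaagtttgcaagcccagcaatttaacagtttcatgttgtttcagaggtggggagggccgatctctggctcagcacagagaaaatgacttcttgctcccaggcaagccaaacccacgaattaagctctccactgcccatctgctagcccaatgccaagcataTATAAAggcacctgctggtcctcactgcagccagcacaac
Krt25 (chr11:99322952-99323201, minus strand): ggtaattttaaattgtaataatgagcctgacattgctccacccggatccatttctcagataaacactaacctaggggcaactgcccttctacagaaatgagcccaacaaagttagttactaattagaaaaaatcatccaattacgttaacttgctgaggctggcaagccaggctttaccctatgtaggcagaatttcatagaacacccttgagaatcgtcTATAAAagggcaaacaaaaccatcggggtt
Krt31 (chr11:100050552-100050801, minus strand): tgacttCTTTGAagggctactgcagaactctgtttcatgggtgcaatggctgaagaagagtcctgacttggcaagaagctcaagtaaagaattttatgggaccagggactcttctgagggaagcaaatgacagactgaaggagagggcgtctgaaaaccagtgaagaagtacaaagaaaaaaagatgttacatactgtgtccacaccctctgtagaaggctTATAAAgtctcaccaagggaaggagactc
Krt34 (chr11:100041555-100041804, minus strand): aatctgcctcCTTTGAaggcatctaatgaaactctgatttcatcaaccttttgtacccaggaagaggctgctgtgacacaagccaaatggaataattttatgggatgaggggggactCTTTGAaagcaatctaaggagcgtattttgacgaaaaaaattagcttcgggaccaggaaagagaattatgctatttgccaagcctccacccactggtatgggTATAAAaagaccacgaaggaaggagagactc
Krt84 (chr15:101532821-101533070, minus strand): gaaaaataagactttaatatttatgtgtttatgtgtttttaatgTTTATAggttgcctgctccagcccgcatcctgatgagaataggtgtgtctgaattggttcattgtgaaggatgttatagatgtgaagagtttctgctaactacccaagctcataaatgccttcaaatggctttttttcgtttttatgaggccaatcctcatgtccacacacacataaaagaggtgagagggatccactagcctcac

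In these stretches TATAAA begins 40 bases before the start in Krt71, 30 in Krt25, 29 in Krt31 and 31 in Krt34, while in Krt84 it lies 206 bases before the start in the opposite orientation. CTTTGA begins 244 bases before the start of Krt31, and 240 and 133 bases before that of Krt34. Over the whole windows, searched on both strands, TATAAA was in 14 of 25 windows of these genes (56.0%) against 13.6% of all 32851 windows, and in 7 of 8 windows of the inner root sheath and companion keratins. CTTTGA was in 7 of the 25 (28.0%) against 16.0% of all windows, 4 of them among the 5 windows of type I hair keratins. TTTAT, a core bound by Hox proteins that overlaps TATAAA read on the other strand, was in 76.0% against 40.0%, and ACGC, a core bound by Foxn1, in 48.0% against 55.3%. These are matches of letters, and binding was not measured.

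The first comparison set WT BLM mice against WT PBS mice. All 31 were lower in each WT BLM mouse than in any WT PBS mouse, as were 28.7% of the 18311 genes tested. With edgeR's quasi-likelihood test and Benjamini-Hochberg adjustment over all genes tested, 17 of the 31 fell, against 14.1% of all genes called lower, and none rose. The median log2 fold change of the 31 was -7.24, with a range of -9.76 to -0.76, against a median of 0.02 over all genes tested. In whole skin, fewer cells of a type and less RNA per cell cannot be told apart. The phase of hair growth is not given for any mouse, and its part in this difference was not tested. KO PBS 137 and 139, which received no bleomycin, had 0.0375% and 0.0733% of counts in these genes, against 0.0308% to 0.105% in WT BLM mice. The 14 genes not called had adjusted p-values of 0.0521 to 0.0785. Without KO PBS 136 and KO BLM 141 the number called was 30, against 23.4% of all genes called lower, with Gata3 as the exception. Leaving out WT BLM 145, 146 or 147 left 6, 7 or 4 of the 31 genes called, with 1124, 1119 and 836 called lower over all genes tested. Leaving out any 1 WT PBS mouse left 6, with 912 to 1281 over all genes. Leaving out KO BLM 144 left 10, with 2211 over all genes. Without KO PBS 136, 137 or 139 it was 29, 29 and 26, with 4050, 2776 and 2662 over all genes. The fit of all 12 libraries had 2589 of 18311 genes called lower, and these fits tested 18678 to 18772 genes. All 31 folds stayed below 0 in each of these fits, and the median without WT BLM 146 was -10.22.

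**Figure D2:**
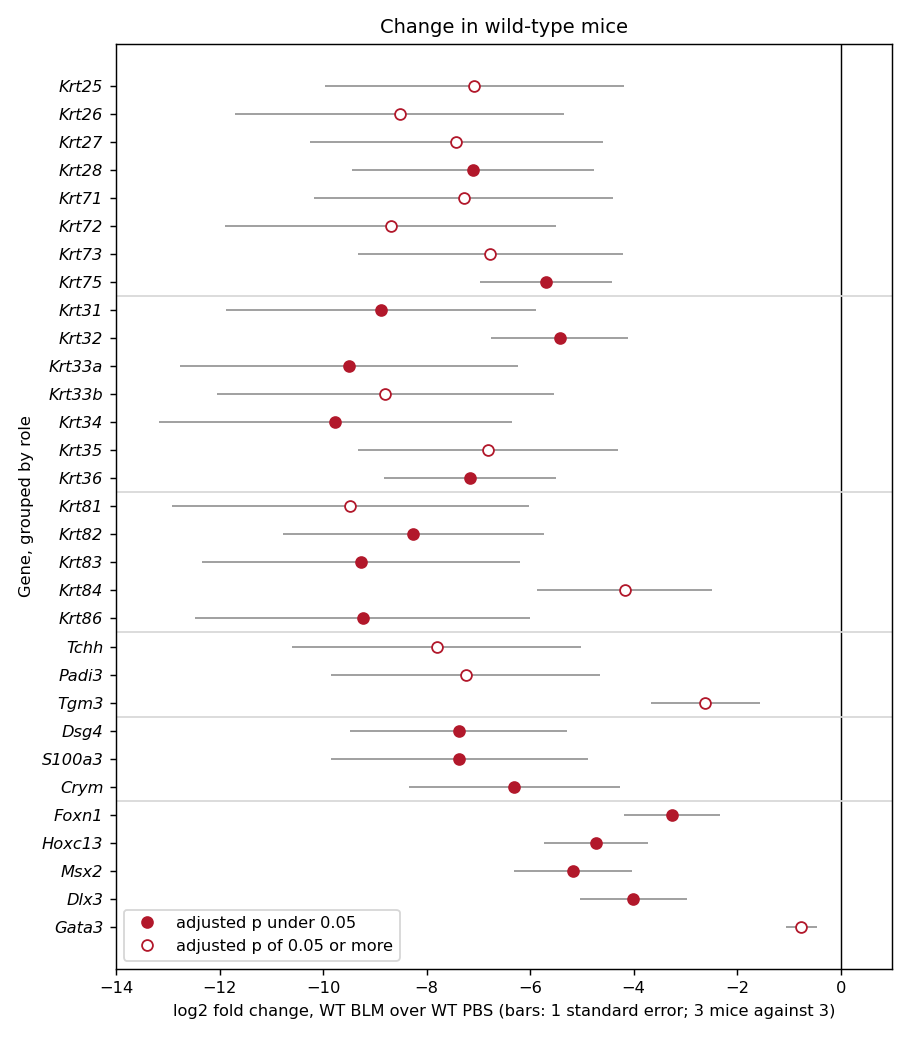
Log2 fold change of each gene in WT BLM over WT PBS mice (horizontal axis) with 1 standard error, from edgeR over all 12 libraries, for genes grouped by role. All 31 points lie below 0, from -0.76 for Gata3 to -9.76 for Krt34, and the 17 filled points passed the adjusted p threshold of 0.05.

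Among the inner root sheath keratins, Krt71 was the highest gene per length in WT PBS skin, at 6460.1 CPM per kb of exon, followed by Krt25 at 3725, both being partners in the filaments of the sheath. Krt71 stood at 13454, 16071 and 12840.2 CPM in the WT PBS mice (14122 ± 1716 SD, n = 3) and at 15.2, 253 and 3.67 CPM in the WT BLM mice. The highest WT BLM mouse, 146, was far above the other two but far below every WT PBS mouse. The log2 fold change was -7.28 ± 2.88 SE, and the adjusted p of 0.0720 in edgeR did not pass. Krt25 read 7285, 8195 and 6748 CPM with PBS and 9.36, 153 and 1.94 CPM with bleomycin, the same order of mice in the WT BLM group. Krt26, Krt27, Krt72 and Krt73 had log2 fold changes of -8.52, -7.42, -8.70 and -6.77, with adjusted p-values of 0.0568 to 0.0637 in edgeR, and none of them was called. Krt28 fell from 981, 1215 and 994 CPM to 1.45, 20.3 and 1.44 CPM (-7.10 ± 2.33 SE, adjusted p = 0.0402, edgeR). Krt75, the keratin of the companion layer that lies between the inner and outer root sheaths, fell with a smaller spread, from 1184, 1506 and 1203 CPM to 16.6, 38.1 and 20.8 CPM (-5.69 ± 1.27 SE, adjusted p = 0.0115, edgeR). Of these 8 keratins, 2 fell and 6 did not pass. Without KO PBS 136 and KO BLM 141 all 8 fell.

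Type I hair keratins are the acidic partners in the filaments of the hair shaft. Krt34 had the largest drop of the 31 genes, from 315, 1387 and 692 CPM in the WT PBS mice to 0, 2.71 and 0 CPM in the WT BLM mice, where 2 libraries held no read. A count of 0 allows up to 0.117 CPM in WT BLM 145 and 0.0984 CPM in WT BLM 147 (3 counts, counting error only). Its log2 fold change was -9.76 ± 3.41 SE with an adjusted p of 0.0483 in edgeR. Krt31 and Krt33a fell too (-8.87 ± 2.996 and -9.50 ± 3.27 SE, adjusted p = 0.0437 and 0.0463, edgeR), while Krt33b had -8.80 ± 3.25 SE with an adjusted p of 0.0582 in edgeR. These 4 genes share sequence: of the 50-base stretches of their transcripts, 17.8% to 33.1% also occur in another gene, so reads could have been divided among them and their single values are uncertain. Krt32, a keratin of the hair cuticle, Krt35, an early keratin of the shaft, and Krt36 share 0%, 2.70% and 0.432%. Krt32 fell from 211, 169 and 162 CPM to 4.62, 5.09 and 2.85 CPM (-5.43 ± 1.32 SE, adjusted p = 0.0151, edgeR), and the 3 WT BLM mice lay close together. Gm11571, on the opposite strand, overlaps Krt32 and held at most 331 counts, and whether the counting used strand is not given in the sources used here. Krt35 read 859.8, 823 and 763 CPM and then 0.274, 20.7 and 0.656 CPM, with WT BLM 146 again the highest (-6.82 ± 2.51 SE, adjusted p = 0.0578, edgeR). Krt36 was the lowest type I hair keratin per length in WT PBS skin, at 41.6 CPM per kb, and fell from 73.3, 74.5 and 60.8 CPM to 0.0392, 1.34 and 0.0328 CPM (-7.16 ± 1.66 SE, adjusted p = 0.0128, edgeR).

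Type II hair keratins are the basic partners of the same filaments. Krt81, Krt83 and Krt86 stood at 729.7 to 2019, 1101 to 2509 and 490.3 to 1815 CPM over the WT PBS mice and at 0.0328 to 5.18, 0.392 to 7.14 and 0 to 5.02 CPM over the WT BLM mice, with WT BLM 146 the highest in each. Krt83 and Krt86 fell (-9.28 ± 3.07 and -9.23 ± 3.24 SE, adjusted p = 0.0413 and 0.0490, edgeR), while Krt81 had -9.48 ± 3.45 SE and an adjusted p of 0.0553 in edgeR. They share 22.1% to 43.3% of their 50-base stretches with other genes, so they too are uncertain one by one. Krt82, a cuticle keratin, fell from 142, 123 and 119.8 CPM to 0.0392, 1.04 and 0.131 CPM (-8.26 ± 2.51 SE, adjusted p = 0.0317, edgeR). Krt84, a keratin known from the tongue and nail, had a different order of mice. It read 80.3, 168 and 82.8 CPM with PBS and 6.42, 0.913 and 10.96 CPM with bleomycin, so that WT BLM 146, the highest mouse for most of these genes, was the lowest for Krt84 (-4.18 ± 1.68 SE, adjusted p = 0.0758, edgeR).

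Trichohyalin (Tchh) is the matrix protein in which inner root sheath keratins are embedded, Padi3 converts its arginines to citrulline and Tgm3 crosslinks it. Tchh read 13782, 23143 and 16313 CPM in the WT PBS mice and 16.9, 206 and 14.2 CPM in the WT BLM mice, and Padi3 669.7, 791 and 616 CPM and 0.822, 12 and 0.853 CPM. WT BLM 146 was the highest of its group for both. Their log2 fold changes were -7.81 ± 2.79 and -7.24 ± 2.60 SE, with adjusted p-values of 0.0521 and 0.0531 in edgeR that did not pass. Tgm3, also an enzyme of the interfollicular epidermis, changed less, from 137, 285 and 141 CPM to 29.7, 14.6 and 47.8 CPM (-2.61 ± 1.06 SE, adjusted p = 0.0771, edgeR). WT BLM 146 was the lowest mouse for Tgm3.

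The 3 other shaft proteins fell. Dsg4, the desmosomal cadherin of the shaft, went from 109, 161 and 128 CPM to 0.117, 2.12 and 0.0984 CPM (-7.38 ± 2.10 SE, adjusted p = 0.0255, edgeR). S100a3, a calcium-binding protein of the hair cuticle, fell by 7.37 on the log2 scale from 725 to 802 CPM to 0.783 to 11.5 CPM (adjusted p = 0.0434, edgeR). Crym, a thyroid hormone-binding protein made in the follicle, fell by 6.30 from 394 to 482 CPM to 3.31 to 7.01 CPM (adjusted p = 0.0382, edgeR).

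Log2 fold changes of the transcription factors ran from -5.17 to -0.76, nearer to 0 than those of the structural genes apart from Tgm3 and Krt84, with standard errors of 0.30 to 1.14 against 1.27 to 3.45 for the keratins. Hoxc13, a factor known to act on hair keratin genes, fell from 196, 175 and 180.3 CPM to 5.44, 9.06 and 6.37 CPM (-4.72 ± 1.003 SE, adjusted p = 0.00978, edgeR), the smallest p of the 31. Msx2 fell from 199, 189.9 and 189.5 CPM to 4.66, 6.78 and 4.59 CPM (-5.17 ± 1.14 SE, adjusted p = 0.0110, edgeR). WT BLM 146 was the highest WT BLM mouse for both, at less than 2 times the next. Dlx3 fell from 605 to 639 CPM to 32.1 to 43.5 CPM (-4.00 ± 1.03 SE, adjusted p = 0.0182, edgeR), and Foxn1, the factor whose loss gives the nude mouse, from 145 to 197 CPM to 11.5 to 20.2 CPM (-3.25 ± 0.93 SE, adjusted p = 0.0254, edgeR). For both, WT BLM 146 was the lowest mouse. Gata3 differed least, at 245, 215 and 238 CPM with PBS and 205, 75.7 and 132 CPM with bleomycin (-0.76 ± 0.30 SE, adjusted p = 0.0703, edgeR). Hoxc13, Msx2, Krt75 and Krt36 were the 4 genes called in all 12 fits that left out 1 mouse each.

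Other genes of the growing follicle, from lists of known members, moved in the same comparison, in which 14.1% of all genes were called lower. Of 57 keratin-associated proteins tested, which fill the space between the keratin filaments, 48 fell, with a median log2 fold change of -9.44. Of 5 other hair and follicle keratins 4 fell, from Krt87 at -8.51 to Krt74 at -7.04, while Krt80, also an epidermal keratin, had -0.23 and was not called. Of 11 other regulators 10 fell (median -2.63), including Lef1 at -4.63, the factor that binds CTTTGA, which is also one of the dermal papilla genes. Of 8 other shaft and root sheath genes 5 fell, and Padi2, a peptidylarginine deiminase expressed outside the follicle, rose by 1.24. Markers of other cells changed too: 7 of 7 melanocyte genes (median -4.48), 6 of 6 dermal papilla genes (median -2.43) and 7 of 10 proliferation genes (median -1.39) fell, while 7 of 8 macrophage, 5 of 6 T cell, 4 of 6 fibroblast and 5 of 6 skeletal muscle genes rose, against 19.8% of all genes called higher. Of 9 interfollicular epidermis genes 2 rose, of 5 stress and companion layer keratins 2 rose and 1 fell, of 8 genes of the stem cell region 4 fell, and 0 of 5 adipocyte genes were called. The summed melanocyte level was 1254 to 1650.2 CPM in WT PBS and 48.6 to 118 CPM in WT BLM mice, and the summed skeletal muscle level 3304 to 4431 CPM in WT PBS and 12104 to 25044 CPM in WT BLM mice. The part of cell makeup in the change of the hair genes was not tested.

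The second comparison set KO PBS mice against WT PBS mice, to see whether the knockout alone differed. With edgeR none of the 31 genes was called, 0 had an unadjusted p under 0.05, and 0.0655% of all genes were called. DESeq2 called 0 of the 13 genes for which it gave a p, against 3.83% of all genes. The single KO PBS mice lay far apart. Krt71 read 17177, 0.6001 and 46.96 CPM in KO PBS 136, 137 and 139, so that 136 was above every WT PBS mouse and the other two were far below all of them. Its log2 fold change was -1.30 ± 2.23 SE (adjusted p = 0.729, edgeR). Foxn1 read 163, 12.5 and 16.5 CPM, here with 136 inside the WT PBS range (-1.36 ± 0.86 SE, adjusted p = 0.354, edgeR). KO PBS 136 was within the WT PBS range for 15 genes, above it for 11, most of them inner root sheath genes, and below it for 5. In those 5 (Krt32, Krt36, Krt82, S100a3 and Msx2) the groups did not overlap, against 10.3% of all genes lower without overlap.

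KO PBS 136 had the highest level of the 12 libraries for several inner root sheath genes. Krt72 stood at 3119.9 CPM there against 798 to 1318 CPM in WT PBS mice, and Krt28 at 2608 CPM against 981 to 1215 CPM. Tchh was at 27907 CPM, above the highest WT PBS mouse at 23143 CPM. The cortical keratin Krt34, at 949 CPM, was inside the WT PBS range.

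Without KO PBS 136 and KO BLM 141, 28 of the 31 genes were lower in the KO PBS than in the WT PBS mice, against 21.4% of all genes called lower, with a median log2 fold change of -9.22. Krt71 then had -9.22 (adjusted p = 0.0181, edgeR), Krt34 -9.53 (adjusted p = 0.00623) and Foxn1 -3.50 (adjusted p = 0.000145). The genes not called were Krt36, Krt84 and Gata3. These values rest on 2 KO PBS mice, after removal of the mouse whose levels of these same genes were high. That choice partly set the result, and its p-values are not an independent test.

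KO PBS 137 and 139 were both low but not alike. Relative to KO PBS 136, Krt71 was at 0.273% in mouse 139 and 0.00349% in mouse 137, and 4 genes had no read in mouse 137 (Krt26, Krt33b, Krt34 and Krt81), where 0 allows up to 0.0857 CPM. In mouse 139, however, Krt36 stood at 45.1 CPM (1512 counts), 101% of its level in mouse 136, and Krt84 at 61.02 CPM (2048 counts), 28.8% of it. Dsg4 was at 8.27% of the level in 136, Krt32 at 8.39% and Krt75 at 7.34%, and the 16 other keratins at 0.0277% to 0.333%. Foxn1, Hoxc13, Msx2 and Dlx3 were at 4.09% to 7.66% in mouse 137 and 7.31% to 13.9% in mouse 139, and Gata3 at 75.1% and 64.2%. Krt84 was also at 6.42 and 10.96 CPM in WT BLM 145 and 147, in which Krt71 was at 15.2 and 3.67 CPM. Krt36 and Krt84 were singled out after their values were seen. Krt36 lies at chr11:100102007-100105626 and Krt84 at chr15:101525026-101532820, each beside other hair keratins of its type.

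**Figure D3:**
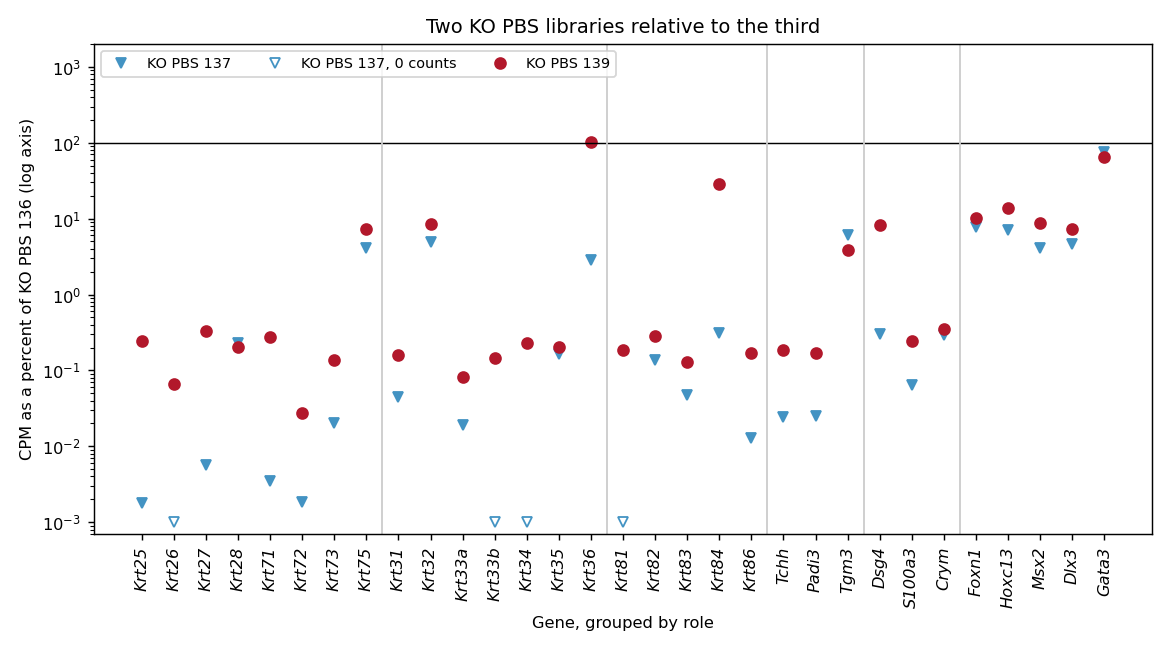
CPM of each gene in KO PBS 137 and KO PBS 139 as a percent of KO PBS 136 (log axis), with open symbols at the bottom for genes with 0 counts. Krt36 in mouse 139 sits at 101%, Krt84 at 28.8% and Gata3 at 64.2%, while most other keratins lie below 1%.

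The third comparison set KO BLM mice against KO PBS mice, the bleomycin response in the knockout. With edgeR none of the 31 genes was called and 0 had an unadjusted p under 0.05, against 0.306% of all genes called. DESeq2 called 0 of 13 genes with a p, against 6.14% of all genes. The groups overlapped for all 31, and the median log2 fold change was -0.70. Krt71 read 10300.0, 1257 and 2051 CPM in KO BLM 141, 143 and 144 (-0.34 ± 2.19 SE, adjusted p = 0.948, edgeR), and Krt34 345, 5.30 and 23.9 CPM (-1.35 ± 2.35 SE, adjusted p = 0.771, edgeR). Mouse 141 was the highest of the 3 for both. Without KO PBS 136 and KO BLM 141, 17 of the 31 genes rose, against 13.5% of all genes called higher, and the median turned to 4.41. These 17 comprised 4 inner root sheath keratins, 3 type I and 2 type II hair keratins, Tchh, Padi3 and Tgm3, S100a3 and Crym, and Foxn1, Msx2 and Dlx3. Krt36 and Krt84, high in KO PBS 139, then had log2 fold changes of -2.07 and -2.93 and were not called. That fit set KO BLM 143 and 144 against KO PBS 137 and 139, the KO PBS mice with low levels. Leaving out the high mice thus partly set the result, and its p-values are not an independent test.

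The fourth comparison set KO BLM mice against WT BLM mice. All 31 fitted log2 fold changes were above 0, with a median of 5.33, and 28 genes did not overlap between the groups, against 14.6% of all genes higher without overlap. With edgeR none was called, against 0.0928% of all genes, while 20 had an unadjusted p under 0.05. The largest unadjusted p of these 20, 0.0493 for Krt27 (edgeR), ranked 3011 by p among all 18311 genes tested. DESeq2 called 4 of 13 genes higher, against 1.7% of all genes. Krt71 was at 10300.0, 1257 and 2051 CPM in KO BLM mice and 15.2, 253 and 3.67 CPM in WT BLM mice (5.64 ± 2.68 SE, adjusted p = 0.316, edgeR). Every KO BLM mouse was above every WT BLM mouse for Krt71. Foxn1 was at 90.1, 23.8 and 31.6 CPM against 20.2, 11.5 and 20.05 CPM (1.49 ± 0.87 SE, adjusted p = 0.384, edgeR), also without overlap. Hoxc13 was at 122, 26.5 and 30.7 CPM against 5.44, 9.06 and 6.37 CPM (3.10 ± 0.93 SE, adjusted p = 0.234, edgeR), and Krt75 at 731, 128 and 153 CPM against 16.6, 38.1 and 20.8 CPM (3.75 ± 1.16 SE, adjusted p = 0.235, edgeR). KO BLM 143 and 144 lay close together for both. Krt84, Tgm3 and Gata3 were the genes that overlapped. Without KO PBS 136 and KO BLM 141, 9 genes were higher, against 2.52% of all genes called higher (Krt28, Krt75, Krt32, Krt82, S100a3, Crym, Hoxc13, Msx2 and Dlx3), and the median was 3.45. Neither Krt71 (4.19, adjusted p = 0.148, edgeR) nor Krt34 (3.97, adjusted p = 0.121, edgeR) was then called.

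The difference between the 2 bleomycin responses (KO minus WT) was tested in the same model. All 31 differences were above 0, that is, the fitted fold change was higher in the knockout than in the wild type, with a median of 6.46 on the log2 scale. With edgeR none passed, against 0% of all genes called, and 16 had an unadjusted p under 0.05. The largest unadjusted p of these 16, 0.0491 for Krt81 (edgeR), ranked 5635 by p among all 18311 genes tested. An unadjusted p under 0.05 was thus common over all genes. The smallest adjusted p was 0.0770 for Msx2 (5.05 ± 1.43 SE, edgeR). DESeq2 called 5 of 13 higher, against 7.91% of all genes. Without KO PBS 136 and KO BLM 141, 28 of the 31 genes differed, against 19.7% of all genes called higher, with a median of 13.13. The 2 KO PBS mice in that fit were those with low levels. Leaving out the high mice thus partly set the result, and its p-values are not an independent test. Krt71 then had a difference of 13.41 (adjusted p = 0.00946, edgeR), and the 3 genes not called were Krt36, Krt84 and Gata3. For comparison, DESeq2 called 13 of 13 genes lower in WT BLM against WT PBS, where 15.6% of all genes were called lower. DESeq2 gave no p for 18 of the 31 genes, so its counts cover a part of the set and cannot stand for all 31. The KO PBS and WT PBS mice are shared by several of these comparisons, so that their values are not independent.

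Levels of other cell types differed between the same libraries. The summed melanocyte level was 658 CPM in KO PBS 136 against 83.3 and 77.2 CPM in 137 and 139, and 751 CPM in KO BLM 141 against 397 and 361 CPM in 143 and 144. The summed level of the 10 proliferation genes was 675 CPM in KO PBS 136 against 242 and 165 CPM, and 683 CPM in KO BLM 141 against 541 and 475 CPM. Within each group both lists were lower in the mouse with the higher hair gene levels of the other two, KO PBS 139 and KO BLM 144. The summed dermal papilla level was also higher in the libraries that stood apart, at 157 CPM in KO PBS 136 against 46.3 and 61.8 CPM in 137 and 139. Most of the sum in 136 was Lef1, at 93.4 CPM there and far lower in 137 and 139. Wif1 and Hhip were also higher in 136. Corin and Alx4 in 136 lay between 137 and 139, and Rspo3 was below both, at 2.99 against 7.77 and 4.77 CPM. The list summed to 147 CPM in KO BLM 141 against 66.5 and 50.3 CPM in 143 and 144, where all its genes but Rspo3 were higher in 141. The summed fibroblast and macrophage levels were lower in KO PBS 136 and KO BLM 141. In KO BLM 141, however, Dcn, Pdgfra and Adgre1 lay between their levels in 143 and 144, and Mrc1 was above both. The summed fibroblast level was 5452 CPM in KO PBS 136 against 18108 and 14282 CPM in 137 and 139, and 8698 CPM in KO BLM 141 against 23299 and 21642 CPM in 143 and 144. The macrophage level was 305 CPM in KO PBS 136 against 1498 and 1077 CPM, and 954 CPM in KO BLM 141 against 1296 and 1215 CPM. Skeletal muscle genes summed to 5434 CPM in KO PBS 136 against 22879.6 and 19585 CPM, but to 10231 CPM in KO BLM 141 against 7308 and 13608 CPM. The stem cell region list summed to 1645 CPM in KO PBS 136 against 3248 and 4796 CPM, most of it Krt15 at 1108 against 2507 and 3972 CPM. Its genes did not move alike. Sox9 went the other way, at 156 CPM in 136 against 55.6 and 126 CPM, as did Foxc1 at 77.0 against 33.3 and 39.5 CPM. Lgr5 and Lhx2 in 136 lay between 137 and 139. In KO BLM 141 the list was higher, at 1842 CPM against 1204 and 973 CPM. The adipocyte list read 855 CPM in KO PBS 136 against 1139 and 1744 CPM. In KO BLM 141 it read 794 CPM against 365 and 215 CPM. The interfollicular epidermis list summed to 11690 CPM in KO PBS 136 against 20963 and 20872 CPM, and to 14041.5 CPM in KO BLM 141 against 36128 and 48696 CPM. With KO PBS 136 and KO BLM 141 left out, 10 of 10 proliferation genes and 7 of 7 melanocyte genes were higher in KO BLM than in KO PBS mice, where 13.5% of all genes were called higher. Of 8 macrophage genes 1 was higher, and of 9 interfollicular epidermis genes 1. No gene of the dermal papilla or fibroblast lists was called. Of 8 stem cell region genes 5 were lower, of 5 adipocyte genes 3 and of 6 skeletal muscle genes 1, where 1632 of all 18688 genes were called lower. The part of these cell types in the levels of the hair genes was not tested.

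In the bleomycin mice with intermediate levels, the genes were not reduced alike. In KO BLM 143, Krt35, Krt32 and Krt82 stood at log2 values of -3.13, -3.75 and -5.10 relative to the WT PBS mean, and the 7 inner root sheath keratins at -4.89 to -2.77. The 7 keratins of the hair cortex (Krt31, Krt33a, Krt33b, Krt34, Krt81, Krt83 and Krt86) were lower, at -7.42 to -6.35. In KO BLM 144 the corresponding ranges were -3.92 to -2.52 for the inner root sheath and -5.56 to -4.34 for the cortex, and the 5 transcription factors were at -2.57 to -0.46. In KO BLM 141 the cortex was at -1.31 to -0.82 and the inner root sheath at -1.12 to -0.35, so the ranges overlapped. In WT BLM 146 the ranges nearly met, with the cortex at -8.15 to -7.25 and the inner root sheath at -7.2 to -5.35. The ratio of Krt35 to Krt34 counts was 2.73, 0.593 and 1.10 in the WT PBS mice and 0.830 in KO PBS 136, but 17.6 in KO BLM 143, 6.25 in KO BLM 144 and 7.65 in WT BLM 146. In KO BLM 141 it was 1.71, and in KO PBS 139, where 73 Krt34 counts remained, 0.726. Ratios within the inner root sheath were not all constant either. Krt25 to Krt26 counts were at 9.49 to 12.5 over the WT PBS libraries and at 5.96 in KO PBS 136, but at 33.9 in KO BLM 143, 26.2 in KO BLM 144 and 27.6 in WT BLM 146. Krt71 to Krt72 counts were at 12.2 to 16.9 over the WT PBS libraries and at 5.51 in KO PBS 136, against 32.7 and 24.6 in KO BLM 143 and 144 and 38.4 in WT BLM 146. The ratio of Krt71 to Krt25 ran from 1.57 to 2.38 in the 11 libraries other than KO PBS 137, which had 21 Krt71 counts. The division of keratins was made after these values were seen, and no test was made. The cortical keratins share sequence, as given above, and Krt32, Krt35 and Krt82 do not to that degree.

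**Figure D4:**
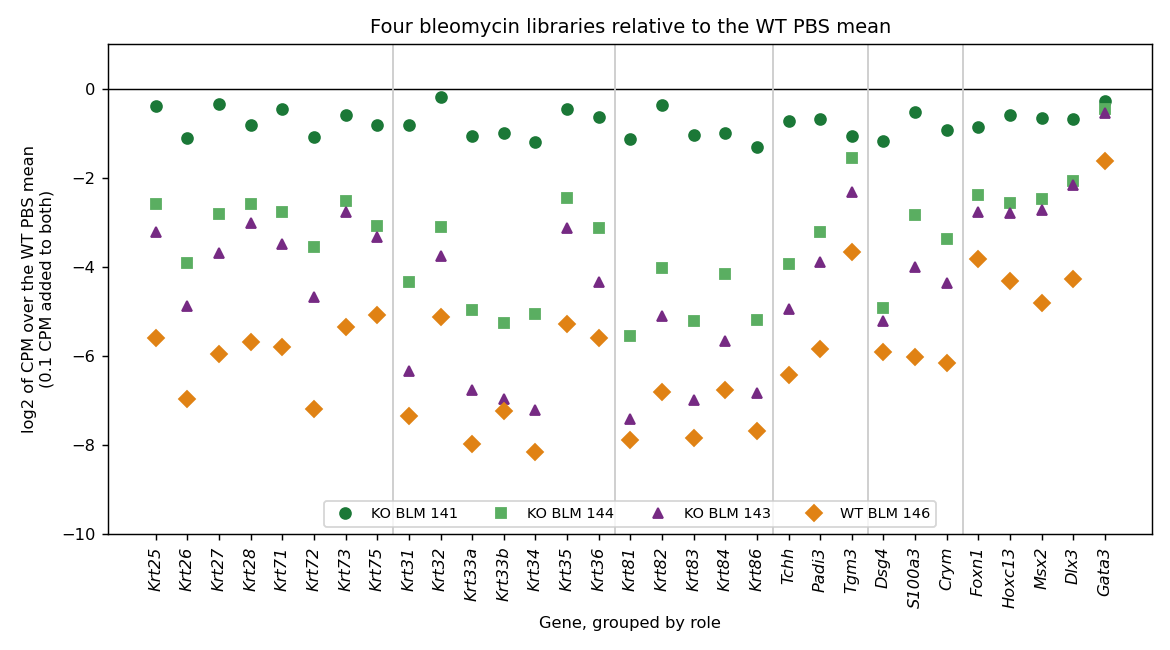
CPM of each gene in KO BLM 141, 143 and 144 and in WT BLM 146, as log2 over the WT PBS mean with 0.1 CPM added to both. The cortical keratins of KO BLM 143 lie at -7.42 to -6.35, below the inner root sheath keratins at -4.89 to -2.77, and Gata3 is nearest to 0.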

How the data were processed

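RNA of mouse skin was sequenced by the authors as stranded mRNA libraries in read pairs. The deposited file holds whole-number read counts for each gene symbol and each of 12 numbered mice, and the authors normalized and tested such counts with DESeq2. The processing notes name GRCm38.p6 and MultiQC 1.7. The aligner, the counter, its annotation and its use of strand are not given in the sources used here. Reads that fit several near-identical keratins may have been divided or dropped.

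From the counts as deposited, edgeR 4.0.16 (R 4.3.3) was used with filterByExpr (a minimum count of 10 and a minimum total of 15), TMM, a quasi-likelihood fit of 4 group means over all 12 libraries and 5 contrasts. P-values were adjusted by Benjamini-Hochberg across the 18311 genes that passed the filter, and 0.05 was the threshold. Standard errors were taken from the fold change and its F statistic. The biological coefficient of variation was 34.9%. DESeq2 1.42.0 was an alternative, and a p or adjusted p it did not give was left missing. The fit was first tested on simulated data in which 200 genes changed. Log2 CPM used a prior count of 2, and a count of 0 was read as allowing up to 3 counts. Groups were taken from the labels. Positions and exon lengths came from GENCODE M21 (GRCm38) by symbol, promoters from RefSeq GRCm38.p6, and shared sequence from 50-base stretches of GENCODE transcripts. All listed genes with a row were named, and of other genes only Thy1 and members of the context lists. The genes and the lists were chosen with earlier results of these data known. Alternatives were other normalizations, filters and tools, each mouse left out, and KO PBS 136 and KO BLM 141 left out together. The last was chosen from the levels of the genes examined here.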

Additional observations from a re-analysis of the deposited data

How the results depend on the processing

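No paired analysis was possible because every mouse has its own number, so no replicate is shared between groups. Of the 31 genes, 17 were called lower in WT BLM against WT PBS mice. This was 30 in a fit of those 2 groups alone and 30 without KO PBS 136 and KO BLM 141, and 4 to 29 over the fits that left out 1 mouse. Over the fits that left out 1 mouse, the calls lower among all genes tested ran from 836 to 4050, against 2589 in the main fit. With other normalizations, other filters or DESeq2 the number of the 31 genes called was 13 to 24, DESeq2 giving a p for 13 genes. In the other 4 comparisons 0 genes were called. For KO BLM against KO PBS it became 17 without KO PBS 136 and KO BLM 141, and 0 to 16 leaving out 1 mouse. For KO PBS against WT PBS it became 28 and 0 to 27. For KO BLM against WT BLM it became 9 and 0 to 15, and 4 with DESeq2. For the difference between the responses it became 28 and 0 to 29, and 5 with DESeq2. The high ends of these 4 ranges are all from leaving out KO PBS 136, where the calls over all 18739 genes tested also rose, to 2632, 6870, 1292 and 7470 in the same order, from 56, 12, 17 and 0 of 18311.

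The log2 fold changes in KO BLM against KO PBS turned from -0.34 to 7.58 for Krt71 and from -1.35 to 6.85 for Krt34 without KO PBS 136, and to 6.12 and 3.75 without KO PBS 136 and KO BLM 141. The same values were -1.75 and -4.40 without KO BLM 141. Krt71 also turned to 0.11 without KO BLM 143 and to 0.01 without KO BLM 144. The cause was not tested. In WT BLM against WT PBS mice no alternative turned the direction of any of the 31 genes. With 3 mice per group, 1 library decided the direction of the medians in the knockout comparison. Precision is limited further for genes with few or no counts in the low libraries.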
